A study of Mus musculus with 20 samples.

Results

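The vesicle exocytosis genes described here were taken from the array annotation by symbol. The symbols were those of the synaptotagmins (Syt), the synaptotagmin-like proteins (Sytl), the syntaxins (Stx), the VAMPs (Vamp), the SNAP proteins (Snap), the Rab3 GTPases (Rab3), the synapsins (Syn), the SV2 proteins (Sv2) and the complexins (Cplx), each stem followed by at least 1 digit or letter. This rule found 72 of the 18193 named genes, and each was read from its probe set with the highest mean log2(intensity + 16) over the 20 arrays. Of the 72, 59 belong to the named families. The remaining 13 match the letters but lie outside these families: 12 are the Rab GTPases Rab30 to Rab39b, and Sync encodes an intermediate filament protein. Snap91 carries the Snap stem and is counted among the 59, but encodes an adaptor of clathrin-mediated endocytosis. Cplx4, Syt10, Syt12 and Sytl1 did not exceed an array's 40th percentile on at least 2 arrays, their highest intensity was 27.5, and they were not tested. The other 68 were tested, and a gene that was bright in a single group could pass this filter through that group.

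RNA from mouse tissue and cultures was hybridised to 20 Affymetrix expression arrays, 1 per sample, in 7 groups. Wild-type ganglia (4 arrays) and wild-type neurospheres (2 arrays) had the genetic background 129+Ter/SvJcl. Ganglia of mice homozygous for a MYCN transgene (2 arrays), tumors of homozygous mice (4 arrays), tumors of homozygous mice that also lacked Mdk, the gene of the growth factor midkine (2 arrays), tumors of hemizygous mice (4 arrays) and tumorspheres of hemizygous mice (2 arrays) had a mixed 129+Ter/SvJcl background. Background and transgene therefore cannot be told apart in any comparison with wild type. The labels state no promoter for the transgene, no age, no kind of ganglion, and no number of animals per array or source of a sphere culture, so each p-value rests on the variation among arrays whose biological independence is not given.

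Neurons and neuroendocrine cells release transmitter when a vesicle fuses with the plasma membrane. Vesicle SNAREs (Vamp1, Vamp2) zip up with the plasma membrane SNAREs Stx1a and Snap25, synaptotagmins sense the calcium that triggers fusion, and complexins bind the assembled SNAREs. Rab3 GTPases and synapsins hold vesicles near release sites, and SV2 proteins sit in the vesicle membrane. Sympathetic neurons and adrenal chromaffin cells, the lineage in which neuroblastoma arises, secrete catecholamines through this machinery. Other cells secrete through relatives such as Snap23, Stx4a, Vamp3 and Vamp8.

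The labels were first set against the arrays. Mdk read 42.6 and 35.5 in the knockout tumors and 268 to 297 in the 4 homozygous tumors. The Mycn probe set read 236 to 413 in wild-type ganglia, 229 to 254 in homozygous ganglia, 120 to 170 in homozygous tumors, 15.7 to 77.7 in hemizygous tumors, 256 to 299 in neurospheres and 351 to 583 in tumorspheres. It was thus lower in the tumors than in wild-type ganglia, and whether it reads the transgene was not tested, so it does not check the genotype labels. The summed intensity of 13 of 14 listed sympathetic and neuronal markers was 21400 to 39100 in wild-type ganglia, 21200 to 23900 in homozygous ganglia, 14600 to 16300 in homozygous tumors, 13900 to 16100 in the knockout tumors and 8990 to 9930 in hemizygous tumors. In tumorspheres it was 13900 to 14500, with Prph under 20 on both arrays, and in neurospheres 966 to 1190, with Th, Phox2a, Hand2, Slc6a2, Tubb3 and Prph under 20. The wild-type ganglia fell into pairs: for 65.3% of all genes tested and 48 of the 68 exocytosis genes (70.6%), ganglia 1 and 2 did not overlap with ganglia 3 and 4. Acta1, a skeletal muscle marker, read 1040 and 529 in ganglia 1 and 2 and 16 and 7.1 in ganglia 3 and 4. Acta1 also exceeded 100 in hemizygous tumor 3 (2390), in tumor 2 of the knockout (1050), in ganglion 2 of the homozygous mice (867) and in their tumor 2 (437), and these 6 arrays are the ones left out where the text speaks of Acta1. The ratio of 3′ to 5′ beta-actin probe sets, which rises as RNA shortens, was 4.36 to 9.14 in wild-type ganglia, 4.02 and 4.68 in homozygous ganglia, 1.96 to 3.28 across all tumors, 3.78 and 7.77 in neurospheres and 2.34 and 2.64 in tumorspheres. The part of RNA quality, of dissection and of tissue composition in the results below was not tested. In bulk samples fewer cells of a type and less RNA per cell cannot be told apart.

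Across the 7 groups, the exocytosis genes were brightest most often in wild-type ganglia and dimmest most often in wild-type neurospheres. The mean intensity, taken on the linear scale, was highest in wild-type ganglia for 33 of the 68 genes and lowest in neurospheres for 32. Neurospheres also held the highest mean of 12 genes and tumorspheres that of 11, while tumorspheres held the lowest mean of 12. Hemizygous tumors, homozygous ganglia, homozygous tumors and knockout tumors held the highest mean of 5, 4, 2 and 1 genes. These rankings were not counted over all genes tested, so nothing particular to the exocytosis genes is read from them. Intensities of different probe sets are not on a common scale, so levels were compared only within a gene. All differences below are on the log2(intensity + 16) scale, which understates the change of dim genes.

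**Figure D1:**
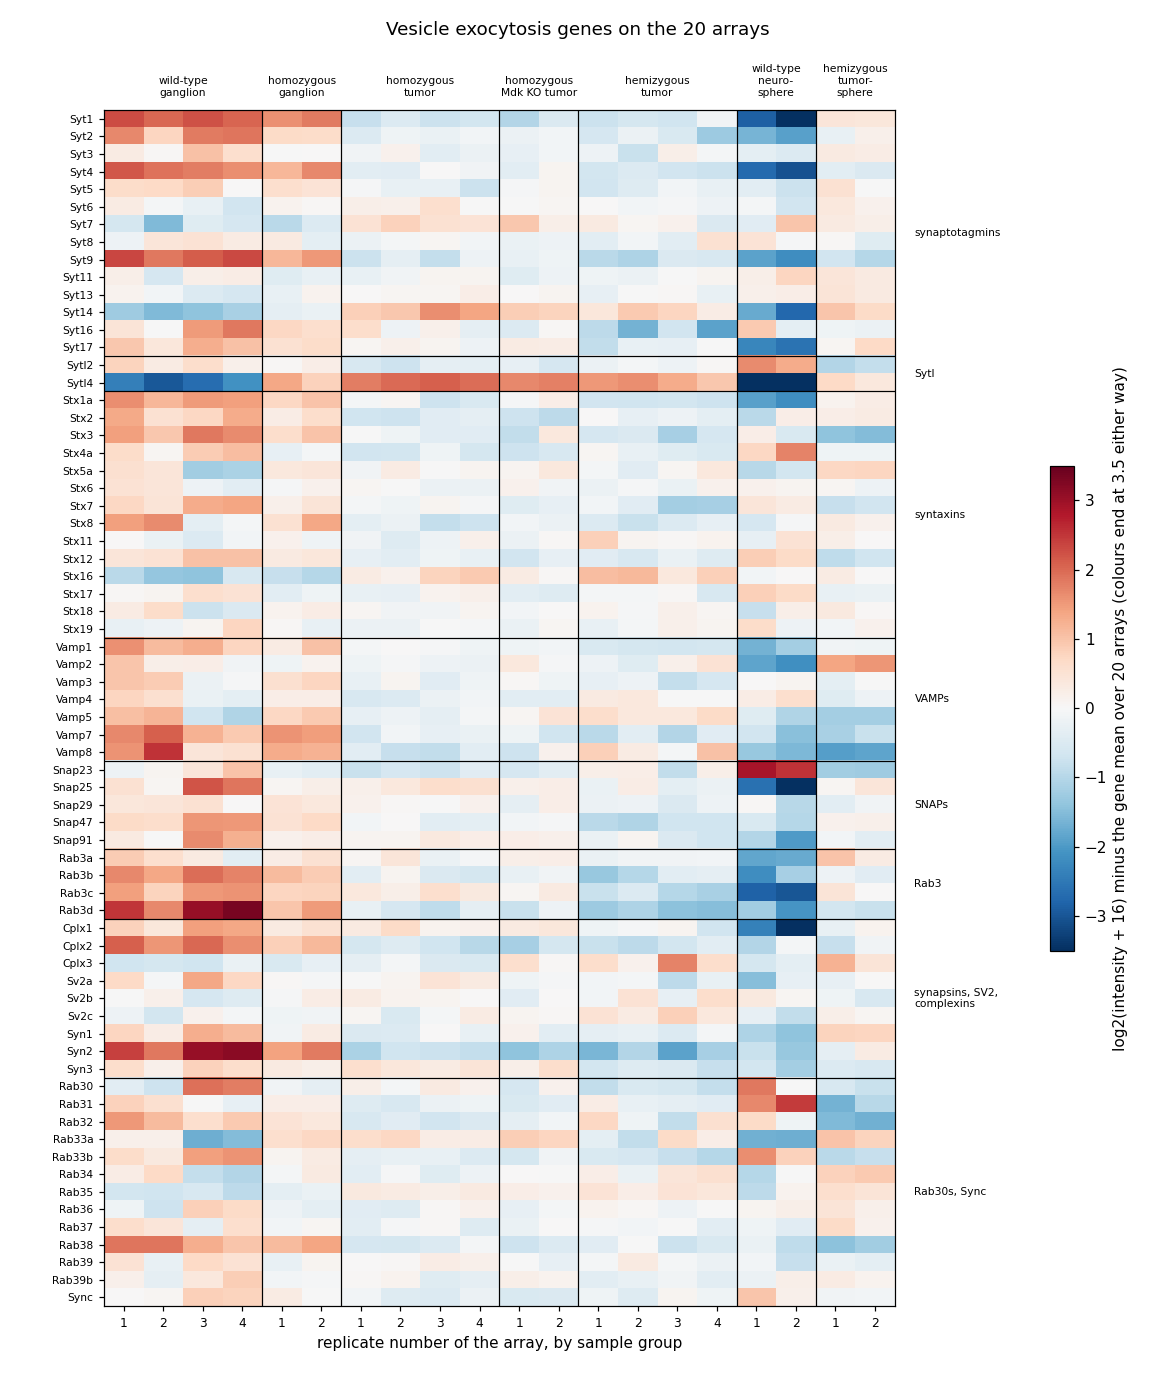
Each row is 1 of the 68 tested genes and each column 1 of the 20 arrays, grouped by sample and numbered by replicate; colour gives log2(intensity + 16) minus the gene's mean over the 20 arrays, with the scale ending at 3.5 either way. Syt1, Syt4, Rab3c and Rab3d are red in wild-type ganglia and blue in neurospheres, Sytl4 is blue in wild-type ganglia and neurospheres and red in the tumors, and Snap23 is darkest in the 2 neurosphere columns.

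Tumors were compared with wild-type ganglia, which asks how the secretory genes of the tumors differ from those of tissue labelled wild-type ganglion. The 2 tumor genotypes share the same 4 control ganglia, so their values are given side by side and not as independent results. In homozygous tumors 39 of 68 exocytosis genes changed at a limma adjusted p under 0.05, with 6 higher and 33 lower, against 49.8% of all genes tested (23.1% higher, 26.6% lower). In hemizygous tumors 46 changed, with 7 higher and 39 lower, against 52.6% of all genes (27.0% higher, 25.6% lower). Against wild-type ganglia 3 and 4 alone, 13 genes were higher and 38 lower in each genotype. All genes then changed at 55.5% and 58.1%. The median log2 difference of the 68 genes was -0.61 in homozygous and -0.71 in hemizygous tumors, and that of all genes -0.12 and -0.05. The 55 tested members of the named families had 4 higher and 27 lower in homozygous tumors and 6 higher and 33 lower in hemizygous tumors.

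The neuronal release core was lower in the tumors, though not all of it. Of its 14 measured genes, 8 were lower and none higher in homozygous tumors (median log2 difference -0.95), and 10 were lower and 1 higher in hemizygous tumors (median -1.25). The summed neuronal markers given above were also lower in both tumor groups than in the wild-type ganglia. So was the sum of 6 of 8 listed Schwann and satellite glia markers, which was 7800 to 9520 in wild-type ganglia, 1030 to 1200 in homozygous and 656 to 1070 in hemizygous tumors. Their part in the result was not tested.

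Synapsin 2 (Syn2), which tethers vesicles to the cytoskeleton, had the lowest log2 difference of the 68 in both genotypes. Its intensity was 1880, 1290, 2990 and 3210 in the 4 wild-type ganglia. In the homozygous tumors it was 151, 206, 200 and 186, and in the hemizygous tumors 103, 162, 83 and 144. Every tumor array was below every ganglion array, with log2 differences of -3.46 (SE 0.27, adjusted p = 9.1e-09) and -4.03 (SE 0.27, adjusted p = 1e-09). The related Syn1 was -1.16 (SE 0.21, adjusted p = 0.00015) and -1.13 (SE 0.21, adjusted p = 0.00016), also without overlap.

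Synaptotagmin 1 (Syt1), the calcium sensor of fast synchronous release, read 2970, 2460, 2860 and 2500 in wild-type ganglia. It read 337, 427, 350 and 377 in homozygous tumors and 349, 385, 364 and 547 in hemizygous tumors. The lowest ganglion array was thus well above the highest tumor array, and the log2 differences were -2.80 (SE 0.18, adjusted p = 1.3e-09) and -2.68 (SE 0.18, adjusted p = 1.5e-09). A dimmer second probe set of Syt1, with a mean intensity of 68.3, differed by -0.78 in homozygous and only -0.14 in hemizygous tumors, so the size of the Syt1 difference depends on the probe set.

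Other synaptotagmins and a complexin were lower too, and of these Syt2 and Cplx2 belong to the core. Syt9, which acts as a calcium sensor in neuroendocrine cells, was -2.67 (SE 0.19, adjusted p = 3.5e-09) in homozygous and -2.92 (SE 0.19, adjusted p = 8.5e-10) in hemizygous tumors. Its ganglion values of 826, 576, 698 and 801 lay above all 8 tumor values, which ran from 62.8 to 130. Syt4, found on dense-core vesicles, was -2.10 (SE 0.17, adjusted p = 1.7e-08) and -2.52 (SE 0.17, adjusted p = 1.4e-09), and Cplx2 was -2.52 (SE 0.23, adjusted p = 6.6e-08) and -2.50 (SE 0.23, adjusted p = 5.2e-08). The tumor and ganglion arrays did not overlap for either gene. Syt2, an alternative fast sensor, was -1.76 and -2.18 (SE 0.24 for each, adjusted p = 9e-06 and 5.7e-07).

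The 3 SNAREs of the release complex behaved unequally. Stx1a read 1240, 904, 1130 and 1100 in wild-type ganglia, 377, 414, 231 and 265 in homozygous tumors and 239, 238, 247 and 230 in hemizygous tumors. It was lower without overlap in both, at -1.74 (SE 0.18, adjusted p = 2.4e-07) and -2.12 (SE 0.18, adjusted p = 1.6e-08). Vamp1 was -1.24 (SE 0.18, adjusted p = 2e-05) and -1.78 (SE 0.18, adjusted p = 2.2e-07). Vamp2, the main neuronal vesicle SNARE, did not pass in either, with 441, 254, 259 and 201 in ganglia against 188 to 211 in homozygous and 159 to 315 in hemizygous tumors. Its log2 differences were -0.46 (95% interval -0.92 to 0.00, adjusted p = 0.088) and -0.30 (95% interval -0.76 to 0.16, adjusted p = 0.26).

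Snap25 differed between the 2 pairs of control ganglia. It read 2210 and 1620 in ganglia 1 and 2 but 7160 and 5620 in ganglia 3 and 4, against 1730, 1990, 2380 and 2280 in homozygous and 1310, 1830, 1200 and 1320 in hemizygous tumors. Both tumor groups overlapped with the first pair of ganglia and lay below the second. The log2 difference was -0.73 (SE 0.40, adjusted p = 0.13) in homozygous tumors, where with ganglia 3 and 4 alone it was -1.60 (adjusted p = 0.0007). In hemizygous tumors it was -1.30 (SE 0.40, adjusted p = 0.01), and with ganglia 1 and 2 alone it was -0.43 (adjusted p = 0.31).

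Rab3a, the Rab GTPase of synaptic vesicles, did not pass in either tumor group, at -0.31 (adjusted p = 0.27) and -0.51 (adjusted p = 0.07). Against ganglia 1 and 2 alone it was -0.70 (adjusted p = 0.0097) and -0.89 (adjusted p = 0.0016). The other Rab3 genes were lower: Rab3d, linked in other secretory tissues to large granules, was -3.15 (SE 0.29, adjusted p = 8e-08) and -3.95 (SE 0.29, adjusted p = 3.8e-09). Its ganglion values were 553, 306, 815 and 994, and all 8 tumor values lay between 20 and 68. Rab3b was -2.03 and -2.44 (SE 0.25 for each, adjusted p = 2.3e-06 and 1.8e-07), and Rab3c was -0.95 and -2.17 (SE 0.19 for each, adjusted p = 0.00046 and 3.5e-08).

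The rest of the core was mixed. Cplx1, a complexin of fast release, was -0.68 (SE 0.26, adjusted p = 0.04) with overlapping groups in homozygous tumors, and quantile normalization left -0.29 (adjusted p = 0.35). In hemizygous tumors it was -1.2 (SE 0.26, adjusted p = 0.00086) without overlap. Sv2a passed only in hemizygous tumors, at -1.02 (SE 0.28, adjusted p = 0.0048) against -0.46 (SE 0.28, adjusted p = 0.18) in homozygous tumors; with ganglia 1 and 2 alone the hemizygous value was -0.66 (adjusted p = 0.079). Sv2c was the single core gene that was higher, at 0.68 (SE 0.20, adjusted p = 0.0087) in hemizygous tumors with intensities of 25.7 to 45.6 against 6.05 to 22.1, and its homozygous value was 0.13 (adjusted p = 0.62). Without the arrays whose Acta1 exceeded 100, Sv2c was 0.35 (adjusted p = 0.19) in hemizygous tumors. Sv2b was dim throughout, at 28.0 or less, and did not pass.

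**Figure D2:**
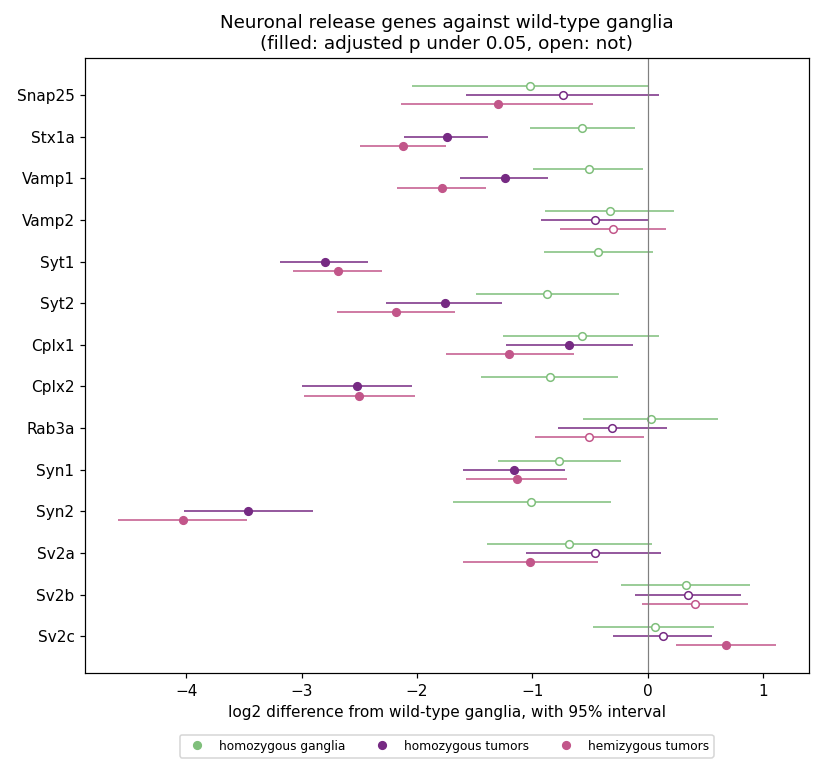
Points are log2 differences of 14 neuronal release genes from the 4 wild-type ganglia for homozygous ganglia, homozygous tumors and hemizygous tumors, with 95% intervals from the limma fit; filled points passed an adjusted p of 0.05. Syn2, Syt1 and Cplx2 lie beyond -2 in both tumor groups, while Vamp2, Rab3a and Sv2b are unfilled in all 3 groups and no homozygous ganglion point is filled.

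A few exocytosis genes were higher in tumors, led by Sytl4. Sytl4 encodes granuphilin, a protein known from pancreatic beta cells to dock dense-core granules through Rab27 and syntaxin 1. It read 147, 93.4, 119 and 181 in wild-type ganglia, 2900, 3350, 3600 and 3280 in homozygous tumors and 2410, 2590, 2060 and 1610 in hemizygous tumors. Every tumor array was several times above the highest ganglion array, with log2 differences of 4.48 (SE 0.21, adjusted p = 7e-11) and 3.86 (SE 0.21, adjusted p = 1.1e-10). A second Sytl4 probe set was near the floor, with a mean intensity of 6.21, and did not show this. The Rab27 partners went opposite ways. Rab27a read 60.6, 28.2, 105 and 53.4 in wild-type ganglia and 202 to 459 in the 8 tumors. Rab27a was higher, at 2.32 (SE 0.23, adjusted p = 2.1e-07) and 1.76 (SE 0.23, adjusted p = 4.3e-06). Rab27b, at 127 to 176 in ganglia, was lower, at -2.65 (SE 0.17, adjusted p = 7.8e-10) and -2.91 (SE 0.17, adjusted p = 2e-10). Sytl2, another Rab27 effector, was lower at -0.96 and -0.58 (SE 0.16 for each, adjusted p = 9.5e-05 and 0.0061).

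Syt14, a synaptotagmin regarded as independent of calcium, was higher in both genotypes as well. Its ganglion intensities were 101, 77.8, 88.0 and 109. They were 475, 513, 841 and 709 in homozygous tumors and 349, 506, 445 and 316 in hemizygous tumors. The groups did not overlap, at 2.54 (SE 0.22, adjusted p = 4.3e-08) and 1.92 (SE 0.22, adjusted p = 9.3e-07). Stx16, a SNARE of the trans-Golgi network, read 394, 290, 279 and 512 in ganglia and 856 to 1690 over the 8 tumors, at 1.60 (SE 0.22, adjusted p = 9.5e-06) and 1.92 (SE 0.22, adjusted p = 8.5e-07). Rab35, a GTPase of endosomal recycling, was higher at 0.99 and 1.10 (SE 0.18 for each, adjusted p = 0.00016 and 4.4e-05).

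Other gains depended on the probe set, the control pair or the genotype. Syt7, a slow, high-affinity calcium sensor, was 1.37 (SE 0.29, adjusted p = 0.00065) in homozygous and 0.79 (SE 0.29, adjusted p = 0.027) in hemizygous tumors by its brightest probe set. The mean of its 4 probe sets gave 0.29 (adjusted p = 0.21) in homozygous tumors. Rab33a was 1.19 (SE 0.38, adjusted p = 0.014) in homozygous tumors, but with ganglia 1 and 2 alone it was 0.30 (adjusted p = 0.43). Cplx3, a complexin known from retina, was at 7.52 or less in wild-type ganglia and 14.6 to 76.1 in hemizygous tumors. It exceeded an array's 40th percentile on 8 of the 20 arrays and entered the test through the groups where it was high, so its log2 difference of 1.34 in hemizygous tumors is a description and its place among the 7 higher genes supports nothing. In homozygous tumors the difference was 0.20.

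Of 8 plasma membrane and granule SNAREs, 5 were lower in homozygous and 4 in hemizygous tumors, and none was higher in either, beside 26.6% and 25.6% of all genes lower and 23.1% and 27% higher. Stx4a read 174, 112, 209 and 238 in ganglia and 60.7 to 93.3 in homozygous tumors, at -1.19 (SE 0.23, adjusted p = 0.00033), and -0.95 (SE 0.23, adjusted p = 0.002) in hemizygous tumors. Snap23, the non-neuronal relative of Snap25, was -0.95 (SE 0.25, adjusted p = 0.0041) in homozygous tumors, or -0.57 (adjusted p = 0.074) with ganglia 1 and 2 alone, and -0.39 (adjusted p = 0.2) in hemizygous tumors. Vamp8, a SNARE of regulated secretion in blood and gland cells, was -1.87 (SE 0.36, adjusted p = 0.00031) and -0.74 (SE 0.36, adjusted p = 0.095). Vamp3, a SNARE of recycling endosomes, was -0.57 (adjusted p = 0.055) and -0.88 (SE 0.24, adjusted p = 0.0047), and the second fell to -0.35 (adjusted p = 0.14) with ganglia 3 and 4 alone. Among 12 endosome and Golgi SNAREs, 5 were lower and 1 higher in homozygous, 7 lower and 1 higher in hemizygous tumors, beside the same shares. Vamp7 was the lowest of these, at -1.81 (SE 0.25, adjusted p = 1.1e-05) and -2.16 (SE 0.25, adjusted p = 1.1e-06). Vamp4, a trans-Golgi SNARE, had 2 probe sets of similar mean intensity (530 and 560) that disagreed, at -0.52 and -0.02 by the one used and at -2.19 and -2.97 by the other bright one.

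**Figure D3:**
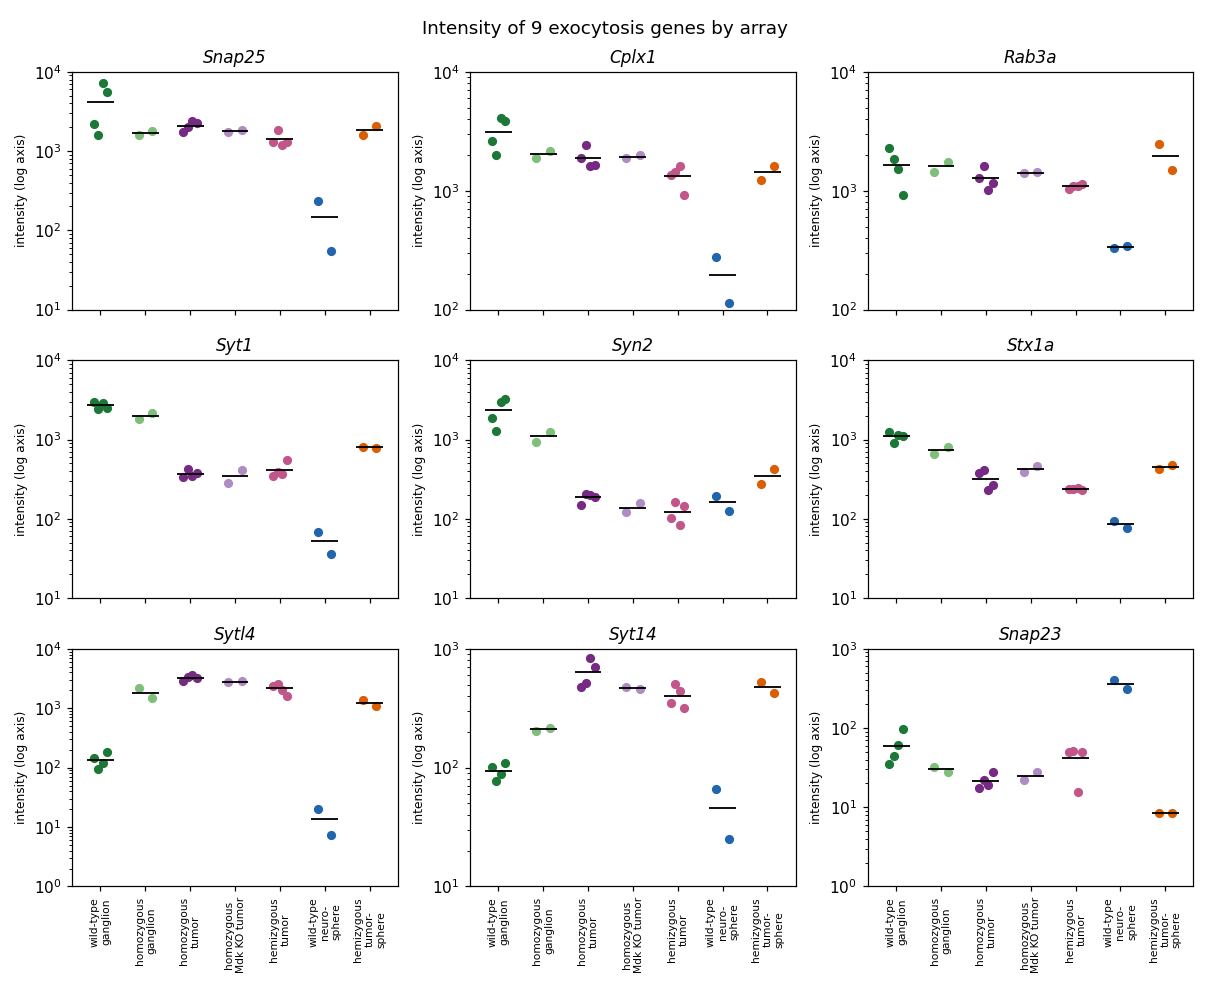
Each point is the intensity of 1 array on a log axis for 9 exocytosis genes, with the 7 groups along the horizontal axis and the bar at the group's mean. Snap25, Cplx1 and Rab3a are far lower in neurospheres than elsewhere, Syt1, Syn2 and Stx1a are also low in tumors, Sytl4 and Syt14 lie above wild-type ganglia in every transgenic group, and Snap23 is 313 and 409 in neurospheres and 8.46 and 8.35 in tumorspheres.

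Promoter sequences are shown for Sytl4 and Syt14, the genes higher than in wild-type ganglia in both tumor genotypes and in homozygous ganglia, and for Syn1, a release gene whose promoter is known from textbooks to hold an element read by the neuronal repressor REST. They come from RefSeq (GRCm38.p6), each 300 bases from 250 before to 50 after a start site, and 55 of the 70 members looked up had an entry, with 72 promoters in all. Capitals mark the letters searched for on both strands: the E-box CACGTG, bound by MYC-family proteins, the cAMP response element TGACGTCA, and TTCAGCACC, the left part of the REST element. The right part of the REST element was searched for too. Sytl4 lies at chrX:133981763-133982062, Syt14 at chr1:193035726-193036025 and Syn1 at chrX:20920869-20921168, all on the minus strand, written 5′ to 3′ on that strand.
Sytl4: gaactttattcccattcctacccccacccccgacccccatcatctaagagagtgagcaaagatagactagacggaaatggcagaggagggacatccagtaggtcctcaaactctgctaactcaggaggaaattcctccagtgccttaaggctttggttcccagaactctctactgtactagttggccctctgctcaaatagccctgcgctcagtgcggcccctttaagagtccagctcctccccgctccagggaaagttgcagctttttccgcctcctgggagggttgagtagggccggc
Syt14: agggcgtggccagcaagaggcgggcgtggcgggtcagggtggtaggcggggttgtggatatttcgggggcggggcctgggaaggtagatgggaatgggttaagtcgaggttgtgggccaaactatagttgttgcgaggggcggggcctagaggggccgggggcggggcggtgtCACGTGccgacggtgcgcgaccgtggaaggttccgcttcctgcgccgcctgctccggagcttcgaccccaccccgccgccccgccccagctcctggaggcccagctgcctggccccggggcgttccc
Syn1: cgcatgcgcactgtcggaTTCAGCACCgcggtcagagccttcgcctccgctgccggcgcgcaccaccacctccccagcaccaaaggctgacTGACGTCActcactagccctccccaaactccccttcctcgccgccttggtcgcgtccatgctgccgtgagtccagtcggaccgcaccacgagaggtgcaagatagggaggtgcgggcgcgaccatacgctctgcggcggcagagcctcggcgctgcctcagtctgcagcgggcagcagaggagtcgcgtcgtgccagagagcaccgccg
The Sytl4 window held none of these letters. The Syt14 window held 1 E-box, beginning 77 bases before the start site, and the Syn1 window held the cAMP response element at 159 and the TTCAGCACC letters at 232 bases before it, with no overlap between them. The E-box letters occurred in 7 of the 72 member promoters (9.72%), those of Cplx3, Stx6, Sv2b, Syt14, Syt6 and Vamp4, and in 7.15% of all 32851 promoters. The cAMP response element was in 1.39% of member and 1.79% of all promoters and TTCAGCACC in 1.39% and 0.371%. Each of these member shares is 1 of the 72 promoters, that of Syn1. The right part of the REST element was in 0 of the 72, Syn1 included, and in 0.137% of all promoters. These matches describe letters only.

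Ganglia of homozygous mice, which carry the transgene and are not labelled tumor, were compared with wild-type ganglia. Of the 68 genes, 4 changed, 2 higher and 2 lower, against 5.01% of all genes tested (3.99% higher, 1.02% lower), and the median log2 difference was -0.33 against -0.03 for all genes. Sytl4 was the largest, at 2150 and 1480 against 93.4 to 181, a log2 difference of 3.61 (SE 0.25, adjusted p = 9.9e-08). Its level in the ganglia was therefore already above all wild-type arrays, and the same gene was 0.87 (SE 0.25, adjusted p = 0.02) higher again in homozygous tumors than in homozygous ganglia. Syt14 read 205 and 217 against 77.8 to 109, at 1.05 (SE 0.27, adjusted p = 0.029). Rab3d read 181 and 269 against 306 to 994, at -1.40 (SE 0.36, adjusted p = 0.027), and Syt9 read 352 and 454 against 576 to 826, at -0.82 (SE 0.23, adjusted p = 0.049).

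None of the 14 release core genes passed in homozygous ganglia at these settings, and at an unadjusted limma p under 0.05 there were 19 of the 68 genes against 21.4% of all genes. Snap25 was 1620 and 1780, within the range of ganglia 1 and 2, and its log2 difference of -1.02 (SE 0.49, adjusted p = 0.23) became -1.89 (adjusted p = 0.0015) against ganglia 3 and 4 alone. Syt1 was 1840 and 2160, below the wild-type 2460 to 2970, at -0.43 (SE 0.22, adjusted p = 0.28). The count of 4 depended on the controls: against ganglia 1 and 2 alone 1 gene passed, against ganglia 3 and 4 alone 35 passed (9 higher, 26 lower) among 34.9% of all genes, and without ganglion 2 there were 13. Without the arrays whose Acta1 exceeded 100, 21 passed (4 higher, 17 lower) among 20.3% of all genes. Without either homozygous ganglion, or without wild-type ganglion 3, Sytl4 alone passed, and without wild-type ganglion 4 Sytl4 and Syt14 passed.

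Within the homozygous genotype, tumors were compared with ganglia. Here 24 of 68 exocytosis genes changed, 4 higher and 20 lower, against 21.6% of all genes (9.35% higher, 12.3% lower), with a median of -0.35 against -0.03. Syn2 fell from 937 and 1260 in ganglia to 151 to 206 in tumors (log2 difference -2.46, SE 0.33, adjusted p = 7.4e-05). Syt1 fell from 1840 and 2160 to 337 to 427 (-2.38, SE 0.22, adjusted p = 3.6e-06), and Syt9 from 352 and 454 to 77.3 to 130 (-1.85, SE 0.23, adjusted p = 4.4e-05). In the homozygous ganglia these 3 neuronal genes thus lay above every tumor of the same genotype and below every wild-type ganglion. Vamp7 was -1.84 (SE 0.31, adjusted p = 0.00052), Vamp8 -1.87 (SE 0.44, adjusted p = 0.006) and Stx1a -1.18 (SE 0.22, adjusted p = 0.001). Snap25, by contrast, was 0.29 (SE 0.49, adjusted p = 0.73), Cplx1 -0.11 (SE 0.32, adjusted p = 0.86) and Rab3a -0.34 (SE 0.28, adjusted p = 0.43). The higher genes were Syt14 at 1.48 (SE 0.27, adjusted p = 0.0011), Stx16 at 1.43 (SE 0.27, adjusted p = 0.0013), Syt7 at 1.30 (SE 0.35, adjusted p = 0.014) and Sytl4. Leaving out homozygous ganglion 1 or 2 gave 14 and 11 genes, and Sytl4 was then 0.60 (adjusted p = 0.3) without ganglion 2. The glial sum was 6420 to 6480 in these ganglia and 1030 to 1200 in these tumors, and its part in the result was not tested.

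Between tumors of hemizygous and homozygous mice 4 of 68 genes differed, 1 higher and 3 lower in hemizygous tumors, against 6.21% of all genes (3.46% higher, 2.74% lower). The medians were -0.11 for the exocytosis genes and 0.06 for all genes. Rab3c, a Rab3 GTPase of neurons and endocrine cells, read 191, 241, 162 and 146 in hemizygous and 446, 390, 522 and 434 in homozygous tumors. Its log2 difference was -1.22 (SE 0.19, adjusted p = 0.001), with no overlap. Syn3, a synapsin prominent in developing neurons, read 89.8, 106, 100 and 79.1 against 234, 204, 188 and 209, at -1.04 (SE 0.17, adjusted p = 0.0014). Cplx3 read 26.4, 14.6, 76.1 and 26.4 against 6.25, 10.4, 3.5 and 3.05, a log2 difference of 1.13. It is the 1 higher gene in the count, but it entered the test through the groups where it was high, so the call is no support. Syt16, at 54.0, 26.3, 67.3 and 20.4 against 185, 101, 133 and 89.3, was -1.34 (SE 0.38, adjusted p = 0.041) and lost its call without any of 7 of the 8 arrays, hemizygous tumor 3 being the exception. No release core gene passed, and their differences ran from -0.57 to 0.55. A fit on the 8 arrays compared, which drops the other groups' spread, called 12 of the 68 genes, 3 higher and 9 lower, among 13% of all genes, and without homozygous tumor 3 the count was 2. The neuronal marker sum was lower in hemizygous tumors on every array. The endothelial sum was 248 to 387 against 103 to 128 in homozygous tumors, with 4 of 5 markers higher, and 3 of 8 macrophage markers were higher. Their part in the result was not tested.

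Loss of Mdk in homozygous tumors was tested on 2 arrays against 4. None of the 68 exocytosis genes passed limma's adjusted p of 0.05, none had an unadjusted p under 0.05, and of all genes 0.00661% passed and 1.32% had an unadjusted p under 0.05. The log2 differences of the 68 genes ran from -0.39 to 0.67. Sytl4 read 2730 and 2850 against 2900 to 3600, a difference of -0.23 (95% interval -0.76 to 0.30). Syt1 read 287 and 412 against 337 to 427, a difference of -0.11 (95% interval -0.58 to 0.37). Snap25 read 1740 and 1820 against 1730 to 2380, a difference of -0.22 (95% interval -1.24 to 0.80). For Snap25 the interval thus leaves room for a change beyond 1 log2 unit downward, and a missed threshold does not show that the groups are alike.

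Sphere cultures were then compared with tissue. Most of the neuronal release core was lower in wild-type neurospheres than in wild-type ganglia, while none of it was lower in hemizygous tumorspheres than in hemizygous tumors and 5 of 14 genes were higher. In neurospheres 37 of 68 genes changed, 5 higher and 32 lower, against 39.2% of all genes (16.8% higher, 22.4% lower), with a median of -0.82 against -0.12. In tumorspheres 15 changed, 7 higher and 8 lower, against 12.6% of all genes (5.61% higher, 6.99% lower), with a median of 0.16 against 0.01. The neurosphere comparison uses the same 4 wild-type ganglia as the tumor comparisons.

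Of the 14 core genes 12 were lower in neurospheres, with a median of -2.49. Syt1 read 68.6 and 35.5 against 2460 to 2970 in ganglia, at -5.36 (SE 0.22, adjusted p = 5.3e-12). Snap25 read 237 and 54.3 against 1620 to 7160, at -4.71 (SE 0.49, adjusted p = 4.3e-07). Cplx1 read 278 and 114 against 1990 to 4060, at -3.95 (SE 0.32, adjusted p = 2.1e-08). In each of these the 2 cultures lay below every ganglion, and neurosphere 2 was below neurosphere 1. Outside the core, Syt4 was -4.77 (SE 0.21, adjusted p = 1e-11), Rab3d -4.28 (SE 0.36, adjusted p = 2.7e-08), Rab3c -4.24 (SE 0.23, adjusted p = 1.8e-10) and Syt9 -4.18 (SE 0.23, adjusted p = 1.9e-10). Sytl4 read 20.1 and 7.37 against 93.4 to 181, at -2.35 (SE 0.25, adjusted p = 7.4e-07).

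In neurospheres 5 genes were higher than in ganglia, Snap23 by the most. It read 409 and 313 against 35.1, 44.9, 60.3 and 98.3, at 2.37 (SE 0.31, adjusted p = 6e-06). Rab31, a Rab of the trans-Golgi and endosomes, read 1390 and 2370 against 345 to 754, at 1.79 (SE 0.30, adjusted p = 0.0001). Sytl2 read 97.6 and 72.3 against 25 to 45.4, at 1.01 (SE 0.20, adjusted p = 0.0006). Both cultures exceeded all ganglia for these 3 genes. Syt7 at 1.08 (SE 0.35, adjusted p = 0.02) and Stx16 at 1.03 (SE 0.27, adjusted p = 0.0054) were less stable: without neurosphere 2 Syt7 was 0.39 (adjusted p = 0.47), and with only the arrays compared Stx16 had an adjusted p of 0.06. Of the 8 plasma membrane and granule SNAREs 1, Snap23, was higher in neurospheres and 3 were lower, beside 16.8% and 22.4% of all genes. The median of the 8 was -0.11. Vamp8 had the lowest difference of them at -2.71, with 11.1 and 6.93 against 74.9 to 375 in ganglia. Marker levels differed between neurospheres and ganglia too. All 13 neuronal markers measured were lower in neurospheres. The macrophage sum was 67.9 to 119 against 860 to 2010 in ganglia, and the endothelial sum 29.3 to 59.9 against 186 to 384. The glial sum overlapped, at 5400 to 9280 against 7800 to 9520. The part of these markers in the result was not tested.

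Several release genes were higher in tumorspheres than in tumors. Vamp2 read 597 and 672 against 159 to 315 in hemizygous tumors, at 1.45 (SE 0.27, adjusted p = 0.0014). Syn2 read 275 and 423 against 83 to 162, at 1.40 (SE 0.33, adjusted p = 0.008), and Syn1 179 and 173 against 65.1 to 91.1, at 1.05 (SE 0.25, adjusted p = 0.01). Both tumorspheres exceeded all 4 tumors in each case. Syt1 was 0.94 (SE 0.22, adjusted p = 0.0091), but the mean of its 4 probe sets gave 0.05 (adjusted p = 0.92). Stx1a was 0.88 (SE 0.22, adjusted p = 0.011) and Rab3c, outside the core, 1.07 (SE 0.23, adjusted p = 0.0053). Snap25 at 0.38 (SE 0.49, adjusted p = 0.7) and Cplx1 at 0.13 (SE 0.32, adjusted p = 0.87) overlapped with the tumors. The neuronal marker sum was also higher in tumorspheres, but only 2 of its 13 markers passed as higher and none as lower. The median log2 difference of these markers was 0.06, with a range of -1.05 to 2.73. The part of the neuronal markers in the result was not tested.

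The 8 genes lower in tumorspheres included 2 of the 8 plasma membrane and granule SNAREs, Vamp8 and Snap23. None of these SNAREs was higher, beside 6.99% of all genes lower and 5.61% higher, and their median was -0.06. Stx4a at 92.7 and 92.2 against 68.0 to 112 overlapped with the tumors. So did Vamp3, at 809 and 1030 against 576 to 910. Vamp8 read 1.79 and 2.93 against 105, 66.8, 49.3 and 123 in the tumors, at -2.41 (SE 0.44, adjusted p = 0.0012). Vamp5, a muscle-enriched VAMP, read 0.791 and 0.900 against 33.5 to 45.4, at -1.70 (SE 0.45, adjusted p = 0.018). Snap23 read 8.46 and 8.35 against 49.5, 51.4, 15.4 and 49.9, at -1.17 (SE 0.31, adjusted p = 0.016). The tumorspheres lay below all tumors for these genes. Rab32, a Rab of melanosomes and related organelles, was -1.68 (SE 0.35, adjusted p = 0.0033), Rab31 -1.14 (SE 0.30, adjusted p = 0.016), Sytl2 -0.81 (SE 0.20, adjusted p = 0.012) and Sytl4 -0.80 (SE 0.25, adjusted p = 0.045). The tumorsphere values of Vamp8, Vamp5, Snap23, Rab32 and Sytl2 lay under 8.58, the lowest of the arrays' 40th percentiles. These genes passed the filter through other groups. In any comparison with tumorspheres the size of their difference is bounded by that floor. The 8 of 9 macrophage markers measured summed to 1130 to 3060 in the tumors and 77.3 and 97.6 in tumorspheres, where Cd68, Csf1r, Cd14, C1qa, C1qb and C1qc were under 20. The 5 endothelial markers summed to 248 to 387 and 13.6 and 17.3, and all 5 were under 20 in tumorspheres. Their part in the result was not tested. Leaving out either tumorsphere gave 4 genes in place of 15.

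The 2 spheres differed from each other in both directions. Tumorspheres against neurospheres gave 35 of 68 genes changed, 25 higher and 10 lower, against 38.4% of all genes (23.5% higher, 14.9% lower), with a median of 0.44 against 0.11. Of the 14 core genes 10 were higher and none lower, with a median of 1.87. Sytl4 read 1360 and 1090 against 20.1 and 7.37, at 5.41 (SE 0.29, adjusted p = 1.8e-10). Snap25 was 3.79 (SE 0.56, adjusted p = 3.8e-05), Syt1 3.62 (SE 0.26, adjusted p = 6.5e-09), Vamp2 3.47 (SE 0.31, adjusted p = 1.1e-07), Rab3c 3.13 (SE 0.27, adjusted p = 7.4e-08) and Syt14 3.07 (SE 0.31, adjusted p = 5.5e-07). On the other side stood Snap23 at -3.94 (SE 0.35, adjusted p = 1.1e-07), Rab31 at -3.37 (SE 0.34, adjusted p = 5.3e-07), Sytl2 at -2.40 (SE 0.23, adjusted p = 3e-07), Rab33b at -2.10 (SE 0.35, adjusted p = 0.00012), Rab32 at -1.88 (SE 0.40, adjusted p = 0.0011) and Stx12 at -1.55 (SE 0.23, adjusted p = 3.5e-05). Cplx2 was 0.09 (SE 0.32, adjusted p = 0.86), at 84.2 and 146 against 69.2 and 152. The 2 kinds of sphere differ in genotype and in name, and the labels state no source for either, so genotype and source cannot be told apart.

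The difference between the 2 tissue-to-culture changes was tested as an interaction, the change from tumor to tumorsphere minus the change from ganglion to neurosphere. It passed for 36 of 68 genes, 32 positive and 4 negative, against 32.5% of all genes (17.8% positive, 14.7% negative), with a median of 0.89 against 0.13. Of the 14 core genes 12 were positive and none negative, with a median of 3.46. Syt1 had the largest value, 6.30 (SE 0.32, adjusted p = 1.5e-10), followed by Rab3c at 5.30 (SE 0.33, adjusted p = 2.2e-09) and Snap25 at 5.09 (SE 0.69, adjusted p = 1.8e-05). The negative genes were Snap23 at -3.55 (SE 0.43, adjusted p = 6e-06), Rab31 at -2.92 (SE 0.42, adjusted p = 3.4e-05), Sytl2 at -1.82 (SE 0.28, adjusted p = 8.3e-05) and Stx16 at -1.74 (SE 0.38, adjusted p = 0.0018). Snap23 was thus higher in wild-type culture and lower in transgenic culture than in the tissue each was set against. Syt1 started from 2460 to 2970 in ganglia and from 349 to 547 in tumors, so the tissues that served as reference differed too.

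**Figure D4:**
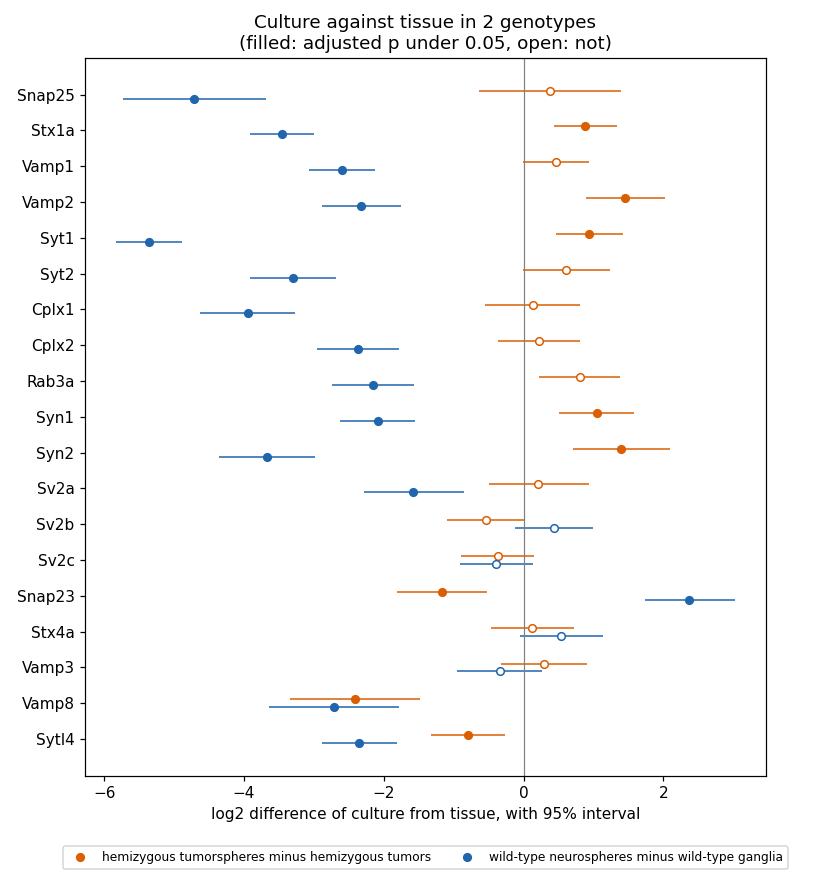
Points are log2 differences between culture and tissue, with 95% intervals, for hemizygous tumorspheres against hemizygous tumors and wild-type neurospheres against wild-type ganglia; filled points passed an adjusted p of 0.05. Neurosphere points lie between -5.36 and -1.58 for 12 of the 14 core genes while tumorsphere points lie at or right of 0 for these 12, and Snap23 is on opposite sides.

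The rest of the exocytosis machinery, a list of other genes of which 57 were measured and 56 tested, went both ways in the tumors. It had 16 higher and 23 lower genes in homozygous tumors and 16 higher and 22 lower in hemizygous tumors, with medians of -0.22 and -0.24. Of the 56 tested this stands beside 23.1% of all genes higher and 26.6% lower in homozygous tumors and 27% higher and 25.6% lower in hemizygous tumors, with medians of -0.12 and -0.05. Doc2a and Doc2b, C2-domain proteins of spontaneous and evoked release, went opposite ways. Doc2a read 13.3, 11.3, 10.6 and 3.46 in wild-type ganglia and 147 to 348 in the 8 tumors. These ganglion values lay near or below the arrays' 40th percentiles, which ran from 8.58 to 15.8. Doc2a could thus enter the test through the groups where it was high. Its log2 differences of 3.24 in homozygous and 3.43 in hemizygous tumors are therefore descriptions. Doc2b was -1.94 (SE 0.33, adjusted p = 9e-05) and -3.32 (SE 0.33, adjusted p = 1.5e-07). Pclo, encoding the active zone scaffold piccolo, read 71.4 to 134 in wild-type ganglia, 529 to 1010 in homozygous and 52.2 to 94.7 in hemizygous tumors. It was higher in homozygous tumors at 2.92 (SE 0.24, adjusted p = 2e-08) and not in hemizygous tumors at -0.25 (adjusted p = 0.41), and the genotypes differed by -3.17 (SE 0.24, adjusted p = 1.5e-06). In homozygous ganglia 2 of the 56 machinery genes were higher and 2 lower, beside 3.99% and 1.02% of all genes. The higher ones were Doc2a at 2.47, again a description, and Pclo at 2.36 (SE 0.29, adjusted p = 4e-05). In neurospheres 5 of the 56 were higher and 27 lower, beside 16.8% and 22.4% of all genes, and in tumorspheres against neurospheres 25 were higher and 4 lower, beside 23.5% and 14.9%.

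For the 13 genes caught by the symbol rule alone the counts were small. In homozygous tumors 2 were higher and 6 lower than in wild-type ganglia, in hemizygous tumors 1 and 6, in neurospheres 1 and 2, and in tumorspheres against neurospheres 3 and 3. The shares of all genes higher and lower were 23.1% and 26.6%, 27% and 25.6%, 16.8% and 22.4%, and 23.5% and 14.9% in the same order, and nothing particular to these 13 genes is read from the counts. Rab38, a relative of Rab32, read 398, 393, 253 and 203 in wild-type ganglia and 50.5 to 95.5 over the 8 tumors, at -1.94 and -1.92 (SE 0.23 for each, adjusted p = 1.5e-06 and 1.2e-06). The 4 wild-type ganglia were above all tumors, and the homozygous ganglia at 223 and 274 overlapped with the wild-type ganglia. Rab33b, a Golgi Rab of autophagy, was -1.32 and -1.73 (SE 0.25 for each, adjusted p = 0.00021 and 1e-05).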

How the data were processed

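Each array was hybridised with RNA amplified in 2 cycles from 40 ng of total RNA taken from frozen tissue or cultures, per the labels' protocols. The deposited intensities are linear probe set values, and as deposited each array had a mean of 100 after trimming 2% at either end. Which software summarised the probes was not given in the sources used here. Detection calls were not used. Of 45037 non-control probe sets, 34945 had 1 gene symbol in the platform annotation, 932 had several and 9160 none; current symbols came from RefSeq. No normalization was added. The brightest probe set stood for each gene, and 15132 of 18193 genes, those above an array's 40th percentile on at least 2 arrays, entered 1 limma fit (version 3.58.1, R 4.3.3) of log2(intensity + 16) on all 20 arrays with 7 group means. P-values were Benjamini-Hochberg adjusted over the 15132 genes, and the threshold was 0.05. All adjusted p-values and intervals in the text come from this limma fit or from an alternative to it. The fit was tested on simulated data.

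The members and gene lists were chosen with earlier results of these data known. Genes were named where they had passed without overlap and were among the 6 highest or 6 lowest differences of a comparison, or where they belonged to the release core or were Snap23, Stx4a, Vamp3, Vamp8 or Sytl4. The others named were chosen after their values were seen. The number of arrays limits the precision. The alternatives were quantile normalization, pseudocounts of 1 and 64, no filter, the mean of all probe sets, replicate number as a block, the compared arrays alone, either pair of wild-type ganglia, and each array left out.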

Additional observations from a re-analysis of the deposited data

Results flagged for a closer look

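In groups of 4 arrays, 5 of 120 gene and group pairs held an array far from the others (4.17%, where chance gives about 1 in 20). Syt7 read 64.8 in wild-type ganglion 2 against 138 to 159 in the other ganglia, and 392 in homozygous tumor 2 against 312 to 322. Snap23 read 15.4 in hemizygous tumor 3 against 49.5 to 51.4, Stx4a 93.3 in homozygous tumor 3 against 60.7 to 63.5, and Cplx3 7.52 in wild-type ganglion 4 against 1.08 to 2.03.

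The change from tissue to culture differed between the transgenic and the wild-type pair of groups for 28 of the 40 named genes by the limma interaction, beside 32.5% of all genes. Some of the 40 were named because they were extreme in this comparison, so the count supports nothing. The difference, transgenic minus wild type on the log2 scale, was above 4 for Syt1 (6.30), Rab3c (5.30), Snap25 (5.09), Syn2 (5.07), Syt4 (4.97), Rab3d (4.89), Stx1a (4.33), Syt9 (4.11) and Cplx1 (4.08). It lay between 2 and 4 for Syt2 (3.91), Vamp2 (3.77), Syn1 (3.14), Vamp1 (3.06), Rab3a (2.96), Snap47 (2.86), Cplx2 (2.60) and Vamp7 (2.28). It was smaller for Rab33a (1.94), Sv2a (1.79), Syt16 (1.75), Sytl4 (1.55), Syn3 (1.53), Rab38 (1.15) and Syt14 (1.15). It was negative for Snap23 (-3.55), Rab31 (-2.92), Sytl2 (-1.82) and Stx16 (-1.74). Genotype and source of the cultures cannot be told apart.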

How the results depend on the processing

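The count of changed genes stayed within 1.5 times of the reported one under every alternative run for homozygous tumors, hemizygous tumors and neurospheres against wild-type ganglia, for tumorspheres against neurospheres and for the interaction, and it was 0 throughout for Mdk loss. The genes behind a stable count could differ. With wild-type ganglia 3 and 4 alone the higher genes were 13 in homozygous and 13 in hemizygous tumors, in place of 6 and 7. Without the arrays with Acta1 over 100 they were 11 and 11. With ganglia 1 and 2 alone, 34 of the 39 and 38 of the 46 calls were shared. For homozygous against wild-type ganglia the 4 genes became 2 with quantile normalization, 1 with a pseudocount of 1, 2 with the replicate block, 1 with only the arrays compared, 1 with wild-type ganglia 1 and 2 alone, 35 with ganglia 3 and 4 alone, and 21 without the arrays with Acta1 over 100, an alternative added after the data were seen. Leaving out 1 array at a time gave 1 to 13 there, 11 to 22 for homozygous tumors against homozygous ganglia, 2 to 6 for hemizygous against homozygous tumors, and 4 to 16 for tumorspheres against hemizygous tumors. Hemizygous against homozygous tumors gave 12 with only the arrays compared and 7 without the arrays with Acta1 over 100. Same-numbered arrays did not deviate together (median correlation 0 over 48 pairs, range -0.32 to 0.28), so the block carries no pairing. Of 140 calls on named genes, 101 held under every alternative, 39 were lost under at least 1, and 0 reversed. The cause of the losses was not tested. Many of these genes were named because they had passed and were extreme, and the alternatives refit the same arrays, so these counts support nothing. No detection calls bound the dim values.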
